A study of Homo sapiens with 9 samples.

Results

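The 10 Krueppel-like factor mRNAs KLF2, KLF3, KLF4, KLF5, KLF6, KLF9, KLF10, KLF11, KLF13 and KLF16 were followed among the 32906 genes listed. The cells were labelled Huh7, the name of an established human liver carcinoma line. The 10 members were found by gene symbol, and each symbol matched 1 listed gene. The cells received Scramble control siRNA or else Si-KDM4C#1 or Si-KDM4C#2, siRNAs against the histone demethylase KDM4C, and total RNA was collected after 48 hours. Each of the 3 groups held 3 libraries (9 in all), sequenced as paired ends. The labels do not say whether these came from separate cultures, so p-values measure only the spread between libraries, which may be technical. The question was how these transcription factor mRNAs stood after each siRNA. The study picked KLF2 after its RNA sequencing, among changed genes already reported in hepatocellular carcinoma, so KLF2 was chosen on these same data. By real-time PCR the study reported higher KLF2 mRNA after KDM4C knockdown in both Huh7 and HepG2 cells.

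Krueppel-like factors are transcription factors with zinc fingers at the C-terminus that bind CACCC boxes and GC-rich elements. Their N-terminal parts differ, and so do the partners they recruit. KLF2, KLF4, KLF5 and KLF6 act largely as activators through histone acetyltransferases, KLF3 represses through the CtBP corepressors, and KLF9, KLF10, KLF11, KLF13 and KLF16 bind the SIN3A corepressor. Several are early-response genes, and in liver cells members of the family take part in metabolic control and in the balance between growth and differentiation.

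Levels are given in FPKM, fragments per kilobase of exon scaled to the mapped fragments of the library, which sets genes of unequal length on 1 scale. The library depth recovered from the values ran from 14597502 to 18058558 fragments with a median of 15901201. The 11 hepatocyte markers that were listed stayed under 1 FPKM in every library, with a summed level from 0.0483 to 0.433 FPKM. The labelled hepatocyte origin was thus not visible in these mRNAs, and the identity of the line rests on the labels and was not tested further. The epithelial keratin mRNAs KRT8 and KRT18 were abundant, and the summed epithelial marker level was 330 to 353 FPKM after Scramble, 290 to 309 FPKM after Si-KDM4C#1 and 240.1 to 254 FPKM after Si-KDM4C#2. Of the 6 epithelial markers 4 were listed, and 2 of these, CDH1 among them, stayed under 1 FPKM in every library. The 4 listed endothelial and 4 listed leukocyte markers were under 1 FPKM in every library. The fibroblast list, led by VIM, summed to 97.0 to 107 FPKM after Scramble, 107 to 109 FPKM after Si-KDM4C#1 and 145 to 146 FPKM after Si-KDM4C#2, and the part of these differences in the results below was not tested.

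The targeted gene was low in every library that received an siRNA against it. KDM4C stood at 4.88, 4.63 and 4.57 FPKM after Scramble, at 1.18, 1.10 and 1.13 FPKM after Si-KDM4C#1 and at 0.256, 0.349 and 0.256 FPKM after Si-KDM4C#2. The mean fell 4.12-fold after Si-KDM4C#1 (adjusted p = 2.65e-07, limma) and 16.4-fold after Si-KDM4C#2 (adjusted p = 5.45e-08, limma). KDM4C was 3.97-fold lower after Si-KDM4C#2 than after Si-KDM4C#1 (adjusted p = 2.40e-05, limma), so the depth of the knockdown differed between the siRNAs.

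The sequence before RefSeq start sites of the members was searched because the family itself binds GC-rich elements. RefSeq promoter windows (build GRCh38.p14) were at hand for 8 of the 10 members, with 2 start sites each for KLF5 and KLF11, and the 250 bases before the start were searched on both strands. These starts differ from the gene bounds given below. By those bounds the KLF4 and KLF11 windows and the KLF5 window from 73058755 lie inside the gene. The KLF2 and KLF6 windows overlap their genes in part. Shown are the windows of KLF2 and KLF16, which rose with both siRNAs, and of KLF9, the member with the largest fall. Capitals mark GC boxes (GGGCGG or CCGCCC) and CACCC boxes (CACCC or GGGTG), as well as the MEF2 motif of KLF2. The windows lie at chr19:16324576-16324825 on the plus strand, chr19:1863580-1863829 on the minus strand and chr9:70414658-70414907 on the minus strand.
KLF2: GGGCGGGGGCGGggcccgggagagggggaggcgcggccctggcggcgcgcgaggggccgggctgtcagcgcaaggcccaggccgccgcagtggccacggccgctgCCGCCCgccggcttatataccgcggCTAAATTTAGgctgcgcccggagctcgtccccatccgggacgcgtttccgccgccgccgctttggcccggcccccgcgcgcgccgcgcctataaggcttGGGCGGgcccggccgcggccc
KLF16: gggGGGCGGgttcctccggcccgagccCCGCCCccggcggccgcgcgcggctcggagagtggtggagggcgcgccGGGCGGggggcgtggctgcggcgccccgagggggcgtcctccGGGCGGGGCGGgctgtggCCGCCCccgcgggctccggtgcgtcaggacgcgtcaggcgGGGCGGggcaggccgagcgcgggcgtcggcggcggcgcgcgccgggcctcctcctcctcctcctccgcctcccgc
KLF9: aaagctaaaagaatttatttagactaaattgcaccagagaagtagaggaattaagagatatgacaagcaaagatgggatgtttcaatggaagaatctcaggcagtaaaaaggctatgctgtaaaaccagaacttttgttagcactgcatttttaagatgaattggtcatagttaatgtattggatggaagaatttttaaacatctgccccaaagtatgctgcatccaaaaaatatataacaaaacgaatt

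The KLF2 window held 4 GC boxes, no CACCC box and a single match to the motif of the MEF2 factors (CTAAATTTAG), which begins 120 bases before the start, at chr19:16324706-16324715. MEF2 factors are known to carry the signal of the kinase ERK5 to KLF2. Only 2.80% of the 35116 windows in the RefSeq table held a MEF2 match, against 42.6% with a GC box and 54.7% with a CACCC box. The KLF16 window held 7 GC boxes, and 86.4% of its bases were G or C, more than in 99.8% of all windows. The KLF9 window lay at the other end, with 32.4% G and C, above only 2.92% of all windows, and without any GC or CACCC box in these letters. The 2 KLF11 windows held 2 and 6 GC boxes, the KLF13 window 3, the KLF4 window 4 and the KLF6 window 2. The KLF5 windows held 0 and 2 GC boxes. A CACGTG E box was found in a KLF11 window and in the KLF4 and KLF6 windows, against 6.34% of all windows. These matches describe the letters of the windows and show no binding.

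With Scramble, the members covered a wide range of levels. KLF5 was highest at 39.6 ± 2.26 FPKM (SD, n = 3), above 93.5% of the 14363 genes tested. KLF10 followed at 25.7 ± 1.54 FPKM and KLF13 at 14.7 ± 0.415 FPKM (SD, n = 3). KLF3 and KLF11 came next at 9.79 ± 0.470 and 9.76 ± 0.312 FPKM, and their libraries overlapped. KLF16 stood at 6.48 ± 0.0790 FPKM. KLF9 at 5.20 ± 0.561 FPKM and KLF4 at 4.64 ± 0.575 FPKM also overlapped. KLF6 at 3.15 ± 0.131 FPKM and KLF2 at 0.612 ± 0.106 FPKM (SD, n = 3) were lowest. Only 2.26% of the tested genes lay below KLF2, which entered the test through its level in the siRNA groups, since the filter asked for a mean of 1 FPKM in at least 1 group. The other 9 members passed it in all groups.

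After Si-KDM4C#1, 6 of the 10 members were higher and 2 lower than after Scramble (adjusted p under 0.05, limma), where 31.7% of all tested genes were higher and 33.9% lower. After Si-KDM4C#2, 7 were higher and 2 lower, where 34.4% of all genes were higher and 25.0% lower. These counts include KLF2, whose siRNA groups alone brought it past the filter. The 7 became 5 with quantile normalization (without KLF5 and KLF13), after adjustment for the GC content of transcripts (without KLF2 and KLF13) and with limma voom on whole fragments recovered from the FPKM values (without KLF5 and KLF13). It became 6 without a filter or with only the 6 libraries compared in the fit, where KLF5 lost its call. The number higher after Si-KDM4C#1 was 6 or 7 in all 8 alternatives. No member passed a fold change of 2 on the log2(FPKM + 1) scale with either siRNA, where 8.87% and 4.89% of the tested genes did. The median change of the members was 0.35 after Si-KDM4C#1 and 0.19 after Si-KDM4C#2, beside -0.03 and 0.06 over all tested genes on the same log2 scale. KLF2, KLF6, KLF11, KLF13 and KLF16 were higher and KLF10 lower in each of these comparisons, which share the Scramble libraries, and the other members differed in their calls. Here as in any bulk sample, fewer expressing cells and less RNA per cell cannot be told apart.

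**Figure D1:**
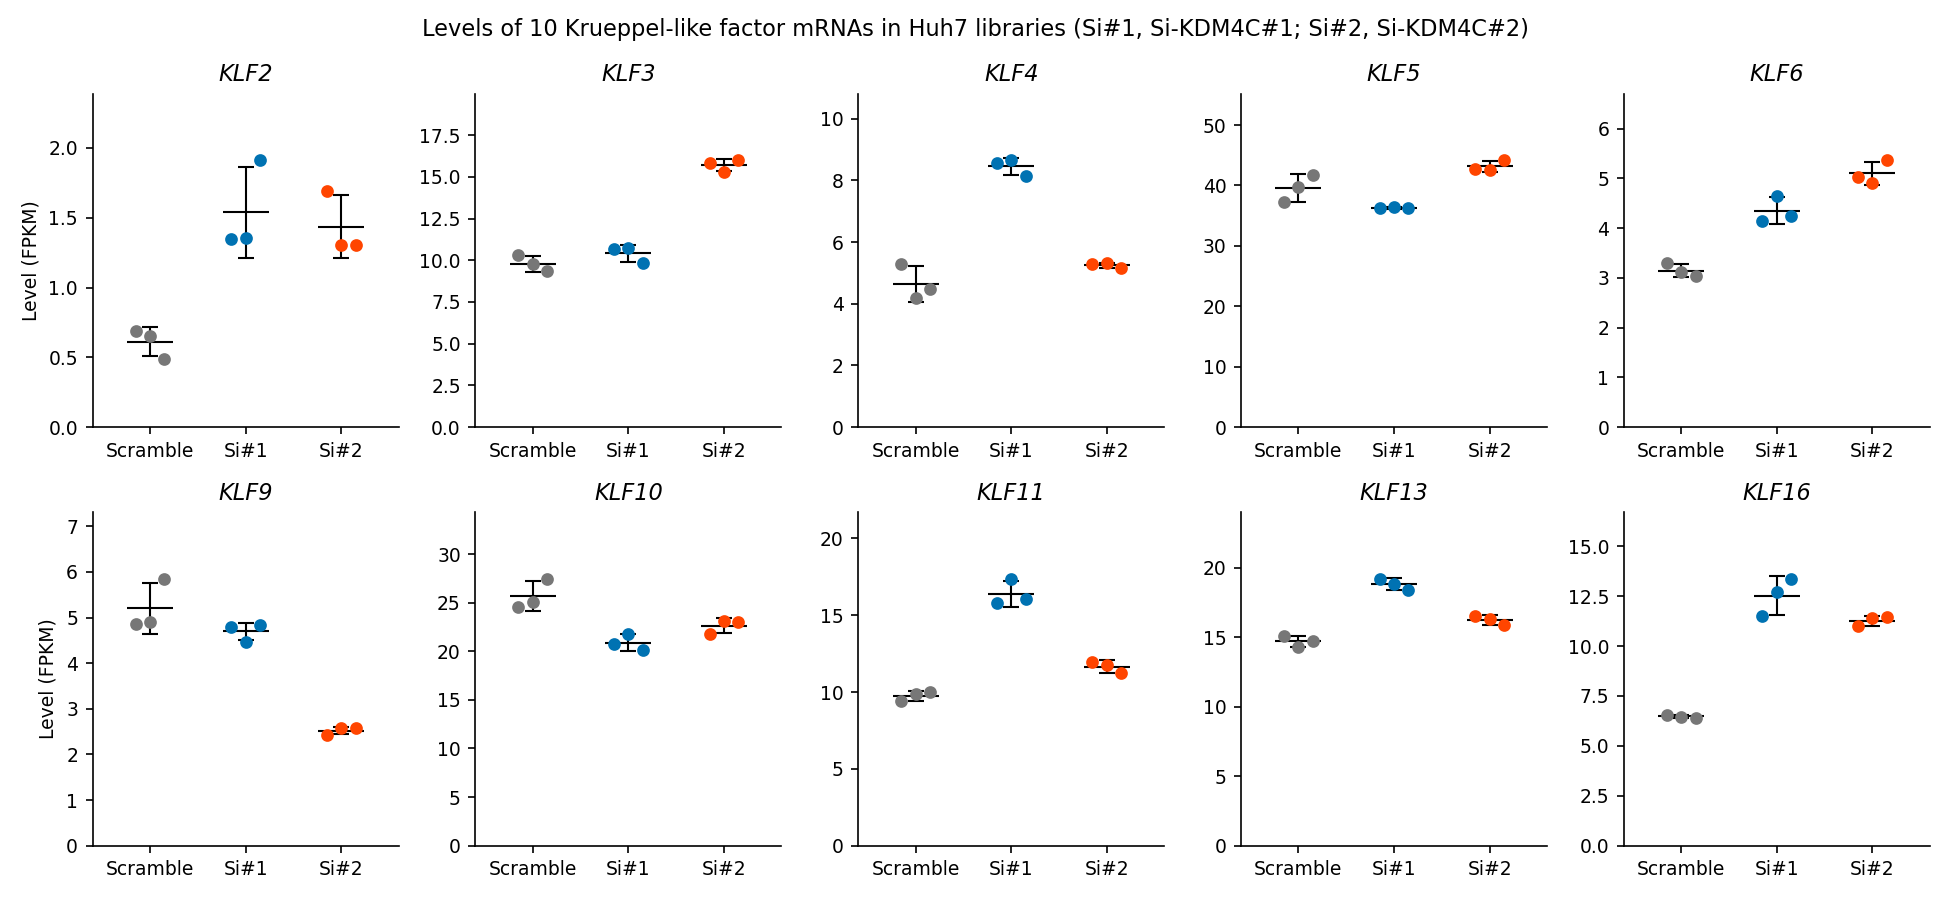
Level of each member in FPKM (vertical axis, from 0) in the 3 libraries of each group (points), with the mean and SD (bars). KLF2, KLF6, KLF11, KLF13 and KLF16 lie above Scramble with both siRNAs, KLF3 is high after Si-KDM4C#2 alone and KLF9 is low after Si-KDM4C#2.

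KLF2 (ENSG00000127528, GRCh38 chromosome 19 from 16324817 to 16327874) keeps T cells quiescent and is the flow-responsive factor of endothelium. It was listed at 0.689, 0.654 and 0.492 FPKM after Scramble, at 1.34, 1.36 and 1.91 FPKM after Si-KDM4C#1 and at 1.69, 1.31 and 1.31 FPKM after Si-KDM4C#2. Every library of either siRNA lay above every Scramble library, and the siRNA groups overlapped each other. These levels rested on 17 to 21 fragments per library after Scramble, 40 to 62 after Si-KDM4C#1 and 41 to 53 after Si-KDM4C#2, the fewest of any member. The ratio of mean FPKM was 2.51 after Si-KDM4C#1 and 2.35 after Si-KDM4C#2. On the log2(FPKM + 1) scale, which understates changes of such low mRNAs, the 95% interval of the change ran from 0.38 to 0.92 (adjusted p = 0.00104, limma) and from 0.32 to 0.87 (adjusted p = 0.00222, limma). KLF2 passed the filter only through the siRNA groups, and without a filter the adjusted p was 0.00454 and 0.00874 (limma). The size of the change depended on the scale. With a pseudocount of 0.1 FPKM it was 1.20 and 1.11, past a fold change of 2, as were 16.0% and 10.0% of the tested genes. After adjustment for the GC content of transcripts it was 0.32 (adjusted p = 0.0349, limma) and 0.19 (adjusted p = 0.190, limma), and with the replicate numbers as a block in that fit neither call held (adjusted p = 0.0633 and 0.249, limma). The difference between the siRNAs was -0.06 with an interval from -0.33 to 0.22 that spans 0 (adjusted p = 0.709, limma).

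KLF4 (ENSG00000136826, chromosome 9 from 107484852 to 107490482) drives epithelial differentiation and is a reprogramming factor of pluripotent cells. It stood at 5.29, 4.18 and 4.47 FPKM after Scramble, at 8.57, 8.65 and 8.15 FPKM after Si-KDM4C#1 and at 5.27, 5.32 and 5.16 FPKM after Si-KDM4C#2. Its Si-KDM4C#1 libraries lay above all others, whereas the Si-KDM4C#2 libraries lay around the highest Scramble library. The ratio of means was 1.82 after Si-KDM4C#1 (log2 change 0.75, SE 0.070, adjusted p = 9.09e-06, limma). With Si-KDM4C#2 it was 1.13 (log2 change 0.15, adjusted p = 0.0865, limma), and without the first Scramble library this change was 0.23 (adjusted p = 0.00520, limma). KLF4 was lower after Si-KDM4C#2 than after Si-KDM4C#1 by a tested difference of -0.60 on the log2 scale (adjusted p = 5.18e-05, limma).

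KLF5 (ENSG00000102554, chromosome 13 from 73054976 to 73077542), which promotes proliferation of epithelial cells and is often set against KLF4, moved little. It stood at 37.2, 39.7 and 41.8 FPKM after Scramble, at 36.2, 36.4 and 36.2 FPKM after Si-KDM4C#1 and at 42.8, 42.6 and 44.2 FPKM after Si-KDM4C#2. The groups did not overlap, with Si-KDM4C#1 lowest and Si-KDM4C#2 highest. The log2 change was -0.12 after Si-KDM4C#1 (adjusted p = 0.0308, limma) and 0.12 after Si-KDM4C#2 (adjusted p = 0.0307, limma). Each of these calls was lost under several alternatives, whereas the difference between the siRNAs of 0.25 (adjusted p = 0.000735, limma) kept its call in each.

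KLF6 (ENSG00000067082, chromosome 10 from 3775996 to 3785281) is a factor induced by injury, with tumor suppressor functions in liver. It was listed at 3.29, 3.12 and 3.03 FPKM after Scramble, at 4.14, 4.65 and 4.25 FPKM after Si-KDM4C#1 and at 5.03, 4.90 and 5.37 FPKM after Si-KDM4C#2. The 3 groups were separate, in the order Scramble, Si-KDM4C#1, Si-KDM4C#2. KLF6 rose 1.38-fold after Si-KDM4C#1 (adjusted p = 0.000394, limma) and 1.62-fold after Si-KDM4C#2 (adjusted p = 3.22e-05, limma). The difference between the siRNAs (0.19 on the log2 scale, adjusted p = 0.0180, limma) kept its call in 4 of 8 alternatives and in 6 of 9 fits without a library. It was lost with quantile normalization (adjusted p = 0.304, limma), with GC adjustment without and with the replicate block (adjusted p = 0.0538 and 0.0892, limma) and on recovered fragments (adjusted p = 0.246, limma voom).

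KLF3 (ENSG00000109787, chromosome 4 from 38664196 to 38701042), the CtBP-dependent repressor of adipogenic and erythroid genes, was higher after Si-KDM4C#2. It stood at 10.3, 9.75 and 9.35 FPKM after Scramble, at 10.7, 10.7 and 9.81 FPKM after Si-KDM4C#1 and at 15.8, 15.3 and 16.0 FPKM after Si-KDM4C#2. Scramble and Si-KDM4C#1 overlapped, and all Si-KDM4C#2 libraries were above both. The ratio of means was 1.60 after Si-KDM4C#2 (log2 change 0.63, SE 0.050, adjusted p = 4.82e-06, limma) and 1.06 after Si-KDM4C#1 (log2 change 0.08, adjusted p = 0.184, limma). The direct difference between the siRNAs was 0.55 (adjusted p = 9.26e-06, limma). The small change after Si-KDM4C#1 passed the test after adjustment for GC content (0.21, adjusted p = 0.00239, limma) and on recovered fragments (0.15, adjusted p = 0.0289, limma voom).

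KLF9 (ENSG00000119138, chromosome 9 from 70384597 to 70414624), a factor induced by glucocorticoid and thyroid hormone, showed the largest fall of the members, and did so after Si-KDM4C#2. It was listed at 4.86, 4.90 and 5.85 FPKM after Scramble, at 4.78, 4.47 and 4.83 FPKM after Si-KDM4C#1 and at 2.43, 2.57 and 2.57 FPKM after Si-KDM4C#2. The Si-KDM4C#2 libraries lay far below the rest, and the Si-KDM4C#1 libraries just below the lowest Scramble library. The fall after Si-KDM4C#2 was 2.06-fold in mean FPKM (log2 change -0.81, SE 0.070, adjusted p = 8.19e-06, limma). With Si-KDM4C#1 the log2 change was -0.12 (adjusted p = 0.158, limma). The siRNAs differed by -0.69 (adjusted p = 1.88e-05, limma).

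KLF10 (ENSG00000155090) and KLF11 (ENSG00000172059, chromosome 2 from 10042849 to 10054836) are the closely related early genes of TGF-beta signaling, and they went opposite ways. KLF10 stood at 24.6, 25.1 and 27.5 FPKM after Scramble, at 20.7, 21.8 and 20.1 FPKM after Si-KDM4C#1 and at 21.7, 23.1 and 23.0 FPKM after Si-KDM4C#2. All siRNA libraries lay below all Scramble libraries. KLF10 fell 1.23-fold after Si-KDM4C#1 (adjusted p = 0.000766, limma) and 1.14-fold after Si-KDM4C#2 (adjusted p = 0.0143, limma). Without the first Si-KDM4C#2 library the latter call was lost (adjusted p = 0.0549, limma), and the siRNAs did not differ past the test (0.11, adjusted p = 0.0867, limma). KLF11 stood at 9.41, 9.87 and 10.0 FPKM after Scramble, at 15.8, 17.4 and 16.0 FPKM after Si-KDM4C#1 and at 12.0, 11.8 and 11.2 FPKM after Si-KDM4C#2. The groups were separate, and KLF11 rose 1.68-fold after Si-KDM4C#1 (adjusted p = 1.32e-06, limma) and 1.19-fold after Si-KDM4C#2 (adjusted p = 0.00236, limma). Its rise was smaller after Si-KDM4C#2 by -0.46 on the log2 scale (adjusted p = 2.64e-05, limma).

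KLF13 (ENSG00000169926, chromosome 15 from 31326855 to 31435665), known for its late activation of CCL5 in T cells, showed the same order of groups at smaller size. It was listed at 15.1, 14.3 and 14.7 FPKM after Scramble, at 19.2, 18.8 and 18.4 FPKM after Si-KDM4C#1 and at 16.5, 16.3 and 15.9 FPKM after Si-KDM4C#2. No groups overlapped. KLF13 rose by 0.34 on the log2 scale after Si-KDM4C#1 (adjusted p = 3.51e-05, limma) and by 0.13 after Si-KDM4C#2 (adjusted p = 0.0126, limma), a difference of -0.20 between the siRNAs (adjusted p = 0.00120, limma). The call after Si-KDM4C#2 held in 4 of 8 alternatives. It was lost after adjustment for GC content, also with the replicate block (-0.05, adjusted p = 0.249 and 0.311, limma), with quantile normalization (0.04, adjusted p = 0.379, limma) and on recovered fragments (0.08, adjusted p = 0.174, limma voom). CCL5 itself, named here after its values were seen, was lower after Si-KDM4C#1 (-0.56, adjusted p = 3.07e-06, limma) and stood at 0.04 after Si-KDM4C#2 (adjusted p = 0.490, limma).

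KLF16 (ENSG00000129911, chromosome 19 from 1852399 to 1863568), a SIN3A-binding factor first known from dopamine receptor gene promoters, had the largest rise of the members with each siRNA on the log2(FPKM + 1) scale. On recovered fragments and with a pseudocount of 0.1, the change of KLF2 was larger. It stood at 6.57, 6.45 and 6.42 FPKM after Scramble, at 11.5, 12.7 and 13.4 FPKM after Si-KDM4C#1 and at 11.0, 11.4 and 11.4 FPKM after Si-KDM4C#2. Every siRNA library lay well above every Scramble library, and the Si-KDM4C#2 libraries lay below those of Si-KDM4C#1. KLF16 rose 1.93-fold after Si-KDM4C#1 (log2 change 0.85, SE 0.054, adjusted p = 6.87e-07, limma) and 1.74-fold after Si-KDM4C#2 (log2 change 0.71, SE 0.054, adjusted p = 3.64e-06, limma). After GC adjustment the changes of KLF16 were 0.42 and 0.19, below those of KLF11 (0.75 and 0.24) with each siRNA. The difference between the siRNAs, -0.14, was close to the limit (adjusted p = 0.0484, limma). It kept its call in 4 of 8 alternatives and in 1 of 9 fits without a library. The library kit does not mark strand, so reads of KLF16 cannot be told from those of AC012615.3 on the opposite strand, with which it shares 16.3% of its exon bases. The same holds for 9.07% of the exon bases of KLF11 and 4.22% of those of KLF3.

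**Figure D2:**
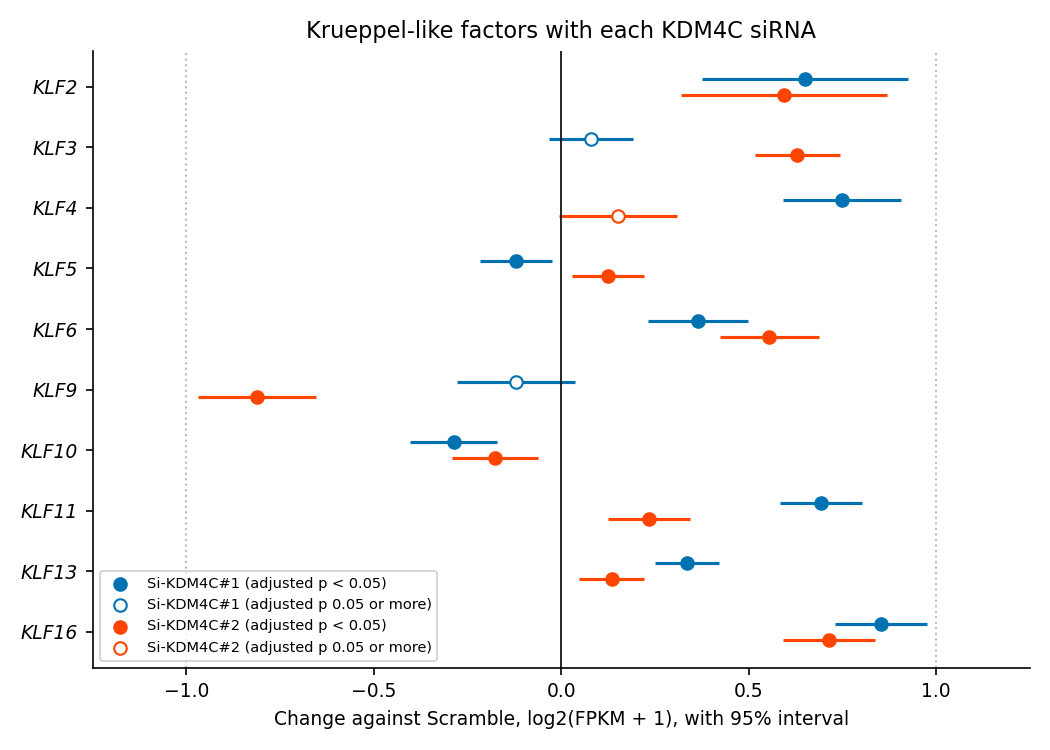
Change of each member against Scramble on the log2(FPKM + 1) scale (horizontal axis) after Si-KDM4C#1 and Si-KDM4C#2, as points with 95% intervals, filled where adjusted p was under 0.05 in limma. Dotted lines mark a fold change of 2, which no member passed, and KLF9, KLF4, KLF3 and KLF11 differ most between the siRNAs (-0.69, -0.60, 0.55 and -0.46).

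Compared directly, 3 members were higher after Si-KDM4C#2 than after Si-KDM4C#1 (KLF3, KLF5 and KLF6) and 5 were lower (KLF4, KLF9, KLF11, KLF13 and KLF16). Over all tested genes 35.9% were higher and 26.5% lower, and 6.91% passed a fold change of 2 in either direction, which no member did. KLF2 and KLF10 showed no call between the siRNAs.

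The members differ in base composition, and in these libraries the change of a gene went with it. Among tested genes whose transcripts hold less than 40% G and C, the median change was -0.31 after Si-KDM4C#1 and -0.13 after Si-KDM4C#2. Among the 438 genes with 65% or more it was 0.37 and 0.45, and 55.0% and 63.7% of them were higher. KLF2 (65.9% G and C, above 97.8% of the tested genes) and KLF16 (70.3%, above 99.7%) belong to this last band, while the other members hold 44.3% to 56.9%. After smoothing out the dependence on GC content within each library (lowess), the change of KLF16 was 0.42 after Si-KDM4C#1 (adjusted p = 0.000720, limma) and 0.19 after Si-KDM4C#2 (adjusted p = 0.0493, limma). The change of KLF2 was then as given above, and its call after Si-KDM4C#2 was lost. KLF6, KLF10 and KLF11 kept their calls with both siRNAs after this adjustment, as did KLF4 and KLF13 after Si-KDM4C#1 and KLF3, KLF5 and KLF9 after Si-KDM4C#2. The part of base composition in these changes cannot be told from the adjustment alone and was not tested further.

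**Figure D3:**
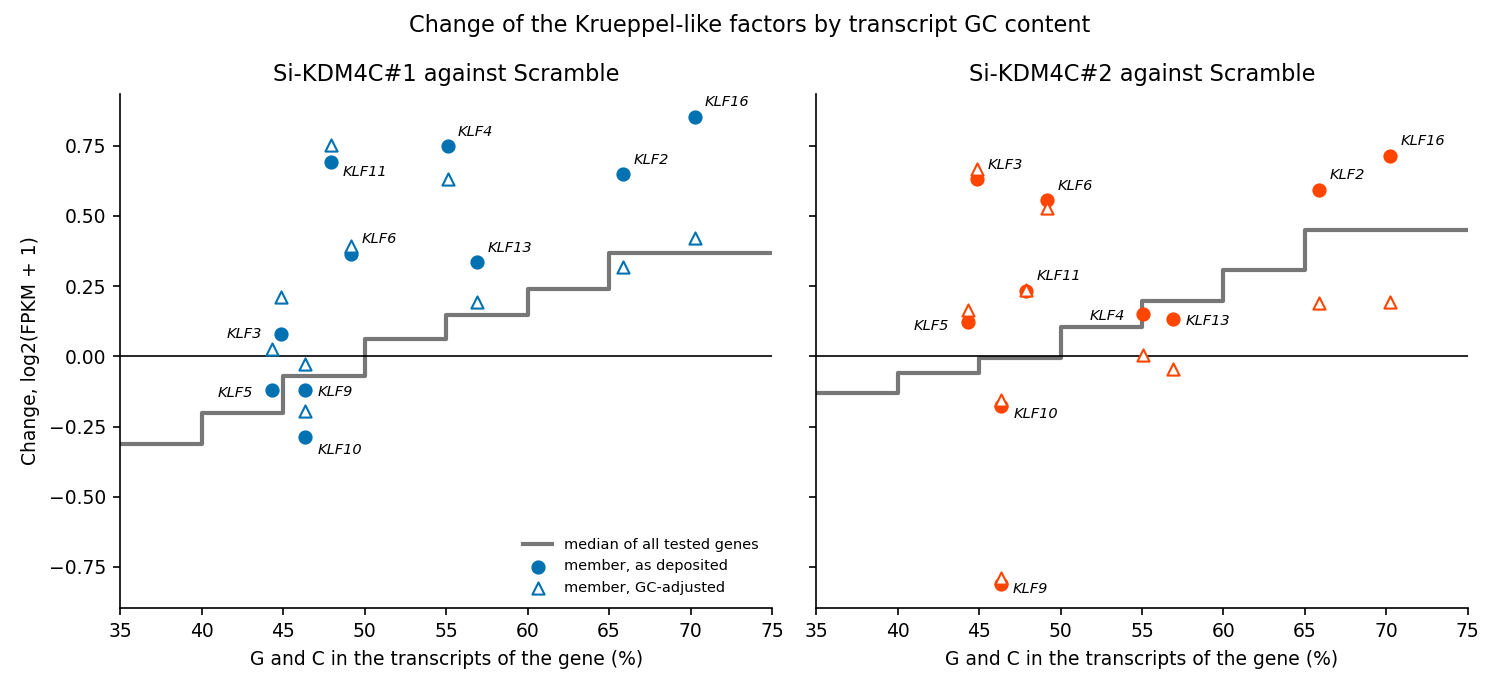
Change against Scramble (vertical axis, log2 scale) by the G and C content of the transcripts (horizontal axis, percent) for each siRNA. The grey steps are the medians of all tested genes, filled points the members and open triangles the members after GC adjustment, where KLF2 and KLF16 move down the most.

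On other scales the low KLF2 moved most. On whole fragments recovered from the FPKM values, limma voom gave KLF2 a log2 change of 1.37 after Si-KDM4C#1 (adjusted p = 0.000138) and 1.15 after Si-KDM4C#2 (adjusted p = 0.00133). KLF16 reached 1.01 after Si-KDM4C#1 and 0.74 after Si-KDM4C#2, and KLF9 -1.10 after Si-KDM4C#2. By that scale, 2 members passed a fold change of 2 with each siRNA, where 18.9% and 12.4% of the 16008 genes in that fit did.

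**Figure D4:**
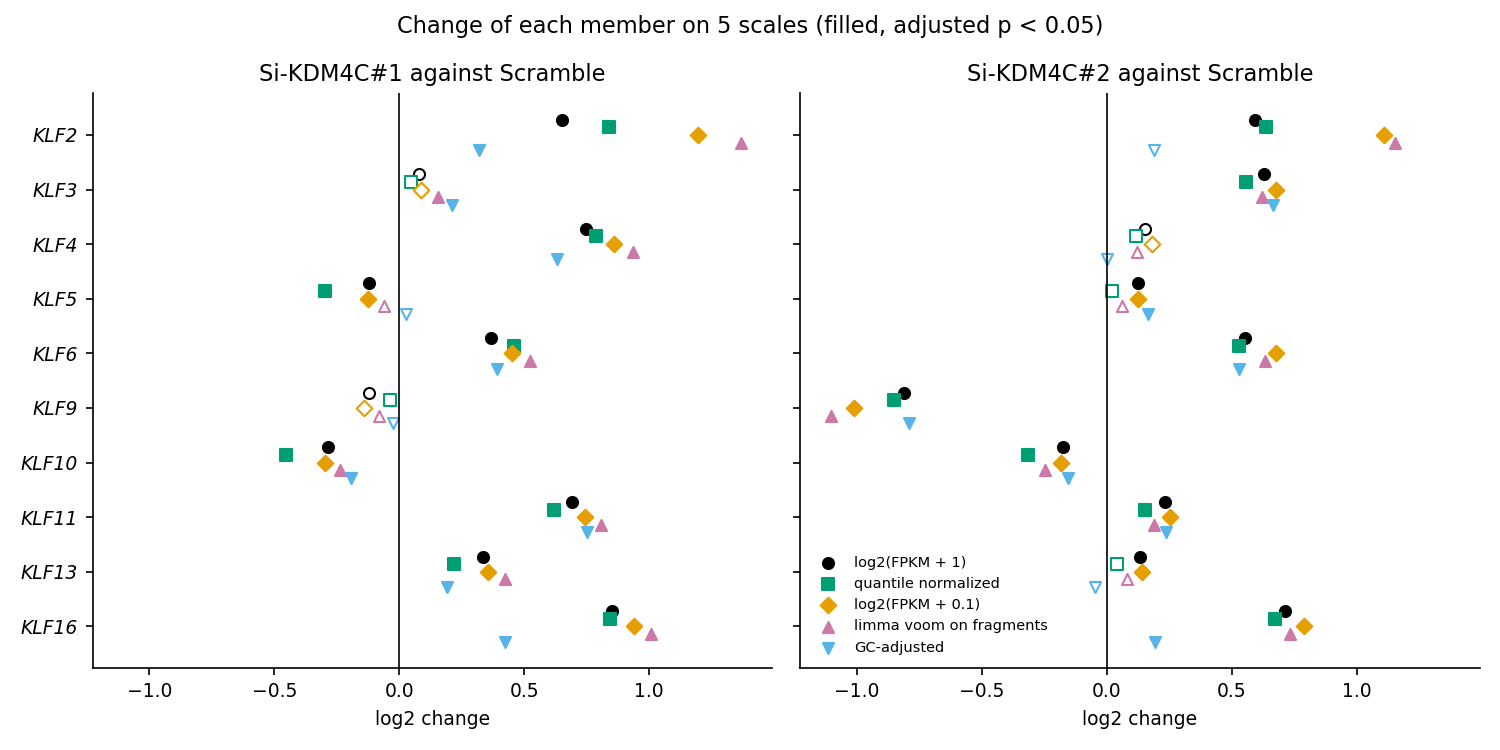
Change of each member (horizontal axis, log2) with each siRNA on 5 scales, filled where adjusted p was under 0.05. KLF2 spans 0.32 to 1.37 after Si-KDM4C#1 and 0.19 to 1.15 after Si-KDM4C#2, whereas KLF6, KLF10, KLF11 and KLF16 keep their sign and call on every scale shown.

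Of the 8 other KLF genes, 7 were listed and 2 passed the filter on low values. KLF7 had log2 changes of -0.18 and 0.11 and KLF12 of -0.11 and -0.18, none past the test (adjusted p = 0.0889, 0.279, 0.241 and 0.0876, limma). Of the related SP factors, which bind the same GC boxes, 4 of 9 were tested. After Si-KDM4C#1 0 were higher and 2 lower, where 31.7% of all tested genes were higher and 33.9% lower. After Si-KDM4C#2 3 were higher and 1 lower, where 34.4% of all tested genes were higher and 25.0% lower. SP1, the ubiquitous activator at GC boxes, fell with each siRNA, from 21.6 ± 1.21 FPKM to 18.2 ± 1.47 and 15.7 ± 0.356 FPKM (SD, n = 3), with adjusted p = 0.00743 and 0.000226 (limma).

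The partners through which the family acts were all expressed. Of 12 corepressor and coactivator genes, 5 were higher and 7 lower after Si-KDM4C#1 (all tested genes, 31.7% and 33.9%). After Si-KDM4C#2, 7 were higher and 1 lower (all tested genes, 34.4% and 25.0%). The median changes were -0.19 and 0.26. HDAC1, a deacetylase of the SIN3 complex, rose by 1.11 and 1.15, from 21.4 ± 0.268 to 47.2 ± 1.83 and 48.5 ± 1.42 FPKM (SD, n = 3). SAP30, another subunit of this complex, rose by 0.33 and 0.94. The complex did not rise as a whole. SIN3A and HDAC2, named after their values were seen, fell after Si-KDM4C#1 (-0.74 and -1.07). Neither passed the test after Si-KDM4C#2 (adjusted p = 0.490 and 0.120, limma). SIN3B, also named after its values were seen, rose by 0.32 and 0.52. Among the acetyltransferases, KAT2A rose by 0.40 and 0.52, whereas KAT2B fell from 8.47 FPKM to 1.56 and 4.99 FPKM (log2 changes -1.89 and -0.66).

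Upstream, the kinase cascade that ends in ERK5 (MAPK7) and the MEF2 factors controls KLF2, class II deacetylases such as HDAC5 hold MEF2 in check, and FOXO factors also act on KLF genes. Of the 10 tested genes of this list, 4 were higher and 3 lower with each siRNA, with median changes of 0.04 and 0.01. The shares of all tested genes were 31.7% higher and 33.9% lower after Si-KDM4C#1 and 34.4% and 25.0% after Si-KDM4C#2, so these counts do not set the list apart. MEF2A fell from 21.5 to 10.5 and 13.2 FPKM (-0.97 and -0.66) and MAPK7 fell from 7.32 to 5.62 and 4.83 FPKM (-0.32 and -0.51). MEF2D rose from 11.9 to 19.0 and 14.6 FPKM (0.64 and 0.28), and HDAC5 rose from 6.09 to 11.3 and 8.70 FPKM (0.80 and 0.45). MEF2A and MEF2D thus moved in opposite directions beside the higher KLF2 mRNA.

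KLF proteins are short-lived, and several ubiquitin ligases limit them. Of 7 such genes tested, 1 was higher and 3 lower with each siRNA, with median changes of -0.03 and 0.06. Among all tested genes 31.7% were higher and 33.9% lower after Si-KDM4C#1, and 34.4% and 25.0% after Si-KDM4C#2. VHL, a ligase for KLF4, rose by 0.74 and 0.60, while BTRC fell by 0.50 and 0.42 and SMURF2 fell by 0.31 and 0.63 on the log2 scale. ITCH fell by 0.67 and 0.17.

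Genes known as targets of the family did not move as 1 group. Of 13 tested, 6 were higher and 5 lower after Si-KDM4C#1 (all tested genes, 31.7% and 33.9%). After Si-KDM4C#2, 2 were higher and 6 lower (all tested genes, 34.4% and 25.0%). The median changes were 0.17 and -0.09. The cell cycle inhibitor CDKN1C fell from 29.3 to 14.4 and 10.3 FPKM (-0.98 and -1.43), and the apoptosis inhibitor BIRC5 rose from 16.0 to 31.9 and 42.7 FPKM (0.96 and 1.37). PDK4, a brake on pyruvate oxidation, rose by 0.90 and 0.58, and TXNIP, an inhibitor of thioredoxin, changed by -0.47 and -1.04. CDKN1A, which KLF4 and KLF6 are known to activate and which was named after its values were seen, went from 207 ± 10.1 FPKM to 464 ± 42.9 FPKM after Si-KDM4C#1 and to 47.8 ± 1.64 FPKM after Si-KDM4C#2 (SD, n = 3). Apart from SIN3A and HDAC2 after Si-KDM4C#2, all changes named here for partners, upstream genes, ligases and targets had an adjusted p under 0.05 in limma.

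Across the 9 libraries, the genes whose log2(FPKM + 1) values followed those of KLF2 most closely were BCL2L12 (Pearson r = 0.975), ARPC1A (0.974) and EXOSC2 (0.971). The 9 libraries share 3 groups, so these values describe the pattern and carry no test. ARPC1A, a subunit of the Arp2/3 complex, stood at 10.1 ± 0.371 FPKM after Scramble, 15.3 ± 1.14 FPKM after Si-KDM4C#1 and 15.6 ± 0.997 FPKM after Si-KDM4C#2 (SD, n = 3). BCL2L12, a member of the BCL2 family, went from 18.6 to 28.2 and 29.4 FPKM, and EXOSC2, an exosome subunit, from 20.7 to 23.8 and 23.5 FPKM.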

How the data were processed

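Per the labels, total RNA of Huh7 cells was made into libraries with a kit that does not mark strand. For each library the authors deposited a single FPKM list. The submitters' processing notes name FastQC 0.11.5, HISAT2 2.1.0, StringTie 1.3.3b, featureCounts and DESeq 1.28.0 and the build GRCh38, without roles, and no scaling between libraries is stated. Multiplied by exon lengths of GENCODE release 29 and a fitted depth, 97.5% of the listed genes gave whole fragments (within 0.05) in every library. A count of 3 fragments corresponds to 0.166 to 0.206 FPKM for 1 kilobase of exon, covering counting error only.

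The 14363 genes averaging 1 FPKM or more in any group were compared on log2(FPKM + 1) with limma 3.58.1 (R 4.3.3), as limma-trend, fitting the 9 libraries together without covariates. Benjamini-Hochberg adjustment ran over all tested genes, and a gene was called at an adjusted p under 0.05, with a fold change over 2 counted beside it. The members, gene lists and tests were chosen with earlier results of these data known. The named genes are the members, KDM4C, per list up to 4 genes called in 1 direction with both siRNAs (by the larger smaller change) or else the 2 of highest level, and the 3 genes most correlated with KLF2. Any other gene was named after its values were seen. KLF1 and a few genes of the marker lists were not analysed here. A further known target of the family is not reported here and was left out of its list.

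Same-numbered libraries did not deviate together (mean correlation 0.016 over 9 pairs, from -0.05 to 0.05), so the numbers were not taken as pairs. No replicates of a group came within sampling noise of each other (chi-square per degree of freedom from 2.67 to 5.61). In simulated libraries of this design, limma-trend recovered 200 and 199 of 200 genes changed 4-fold with Si-KDM4C#1 and Si-KDM4C#2 among 13609 genes, with 1 false call each. Both counts asked for an adjusted p under 0.05 together with a fold change over 2, a limit that no member passed. The changed genes were drawn only from those of higher level. The simulation therefore does not cover changes as small as those of the members, or genes as low as KLF2. The alternatives comprised a pseudocount of 0.1, quantile normalization, no filter on low genes, the 6 libraries of each comparison, the replicate block, a lowess adjustment for GC content (span 0.3) without and with the block, limma voom on recovered fragments (16008 genes) and leaving out each library. GC content was taken over all annotated transcripts of a gene. Figures and motif searches used Python 3.11.15.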

Additional observations from a re-analysis of the deposited data

Results flagged for a closer look

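KLF5 was called lower after Si-KDM4C#1 and higher after Si-KDM4C#2, with a difference between the siRNAs of 0.25 on the log2 scale (adjusted p = 0.000735, limma). Genes were flagged here by opposite calls against the shared Scramble libraries together with a call between the siRNAs. The p-values between the siRNAs were thus part of the choice and add no support. The call of KLF5 held in 3 of 8 alternatives after Si-KDM4C#1 and in 4 of 8 after Si-KDM4C#2. Among the 13 tested targets of the family, the same kind of opposite calls was found for 3 genes. The share of all tested genes with such opposite calls was not counted, so it cannot be told whether 3 of 13 is unusual. CDKN1A differed between the siRNAs by -3.25 (adjusted p = 2.12e-09, limma), CCND1 by -1.93 (adjusted p = 1.06e-08, limma) and PDGFA by -1.03 (adjusted p = 2.18e-05, limma), each higher after Si-KDM4C#1 and lower after Si-KDM4C#2 than after Scramble. No source of these differences was tested.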

How the results depend on the processing

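Of the changes of single members, 211 of 240 values under alternative settings and 246 of 270 values without 1 library kept their direction and their side of the limit, and all values of KDM4C did. The number of members lower after Si-KDM4C#1 went from 2 to 1 without a filter, with the 6 libraries of each comparison, with GC adjustment (also with the replicate block) and with limma voom, and it ranged from 1 to 2 without single libraries. This follows KLF5, whose change after Si-KDM4C#1 turned to 0.0275 with GC adjustment, without and with the block. KLF13 after Si-KDM4C#2 turned to -0.0458 in the same fits, and the difference of KLF10 between the siRNAs was -0.0106 with limma voom. Members lower after Si-KDM4C#2 ranged from 1 to 2 without single libraries, with 1 left without the first Si-KDM4C#2 library, where the call of KLF10 was lost. Members past a fold change of 2 went from 0 to 1 after Si-KDM4C#1 and to 2 after Si-KDM4C#2 with a pseudocount of 0.1. There, 16.0% and 10.0% of the tested genes passed. With limma voom they went to 2 after either siRNA and to 1 between the siRNAs. In that fit 18.9%, 12.4% and 16.0% of all genes passed in these comparisons, and the cause was not tested. Members higher after Si-KDM4C#2 numbered 5 to 7 under the alternatives and 6 to 7 without single libraries. The difference of KLF2 between the siRNAs ranged from -0.131 to 0.0470 without single libraries, positive there only without the third Si-KDM4C#1 library, and from -0.21 to -0.06 under the other alternatives. The replicate block alone lost 1 call, that of KLF16 between the siRNAs (-0.14, adjusted p = 0.0526, limma), and changed no other call of a member. For KLF2, 17 to 62 fragments per library limit the precision.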
